A study of Mus musculus with 12 samples.

Results

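A-kinase anchoring proteins (AKAPs) are scaffolds that hold protein kinase A (PKA) at defined places in the cell. They bind the regulatory subunits of the kinase and bring it together with receptors, channels, phosphatases and phosphodiesterases, so that a rise in cyclic AMP is read locally. In endothelium, cyclic AMP signalling is known for its part in the tightness of cell junctions, and AKAP5 (also called AKAP79/150) and AKAP12 (gravin) are the anchors best known at the plasma membrane. The expression of 8 genes of this group was examined in lung lymphatic endothelial cells (LECs) after cigarette smoke (CS): Akap5, Akap12, Akap1, Akap8, Akap9, Akap10, Akap11 and Akap13. They were found by symbol among the 52636 gene identifiers of the count data, and all 8 passed the filter on low counts, which left 21440 genes. The group was chosen by measured values, because Akap5 stood among the largest changes of named genes after chronic CS. The contrast of chronic CS with chronic room air (RA) is therefore given for these genes as a description with no test, and so is the contrast of Akap5 between the 2 RA groups, since chronic RA entered that choice.

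Lung LECs were isolated by sorting from Prox1-EGFP mice, a reporter strain in which the regulatory sequence of Prox1, the lymphatic transcription factor, drives GFP. The gate kept live cells positive for CD31 and GFP and negative for EPCAM and a hematopoietic lineage cocktail. All mice carried the reporter, of both sexes, and exposure began at 6 weeks of age. The 12 libraries form acute RA (F and M, 2 libraries), acute CS (F and M, 2 libraries), chronic RA (F, M1 and M2, 3 libraries) and chronic CS (F and M1 to M4, 5 libraries), where the letter is the sex in the label. Acute groups had 8 weeks of whole-body exposure to CS or RA by the study's methods and chronic groups at least 24 weeks; the labels give the same grouping as age, 8wk and Aged. Cells of the acute groups were pooled from several mice and those of the chronic groups were not, so that pooling, age and exposure time cannot be told apart between acute and chronic libraries. Within a group nothing else in the labels describes how libraries are related, and p-values weigh a difference against the spread between libraries. In the main fit that spread was estimated from all 12 libraries together, pooled and not pooled.

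Depth differed between libraries, with total counts of 18821438 for the shallowest (chronic CS F) and 56998590 for the deepest (acute RA F). Expression is given as CPM, counts scaled to a common library size after TMM correction, and 3 counts, taken as the limit of detection, correspond to between 0.0507 and 0.158 CPM, for counting error only. The 7 lymphatic markers summed to between 13774 and 21490 CPM in the RA and chronic CS libraries and to 6024 and 9297 CPM in acute CS F and M. Prox1 was counted in every library, from 1042 to 2476 CPM. Markers of cells that the gate should remove were also counted, and their sums are given beside the results they move with. In RNA of a sorted population, a gene active in fewer cells and a gene with less RNA per cell cannot be told apart.

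Akap5 (ENSMUSG00000021057) lies on chromosome 12 of GRCm38 from 76324891 to 76334153 on the plus strand, and no other annotated gene overlaps it. The promoters of the most and the least variable of the 8 genes across libraries, Akap5 and Akap10, are shown so that the letters upstream of both can be compared. They are the 250 bases before the RefSeq start in GRCm38.p6, read in the direction of the gene, at chr12:76324641-76324890 on the plus strand for Akap5 and chr11:61930258-61930507 on the minus strand for Akap10. Capitals mark matches to any of 4 motifs, each searched on both strands. The cyclic AMP response element was searched as TGACGTCA. Its shorter core was searched as TGACG and is part of every full element. The TATA box was searched as TATAAA. The CCAAT box was searched by the letters of its name.
Akap5: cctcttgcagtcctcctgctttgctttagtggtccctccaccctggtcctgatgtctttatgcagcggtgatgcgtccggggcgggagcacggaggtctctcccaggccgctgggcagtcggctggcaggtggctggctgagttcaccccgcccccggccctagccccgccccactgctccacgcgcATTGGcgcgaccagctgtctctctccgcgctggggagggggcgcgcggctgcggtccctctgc
Akap10: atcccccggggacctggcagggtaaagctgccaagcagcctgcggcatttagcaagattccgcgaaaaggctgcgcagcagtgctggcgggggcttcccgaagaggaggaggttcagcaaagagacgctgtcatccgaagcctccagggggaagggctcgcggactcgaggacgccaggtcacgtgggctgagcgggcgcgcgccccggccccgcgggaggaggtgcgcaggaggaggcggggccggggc
Both windows were rich in G and C, at 70% each, against a median of 52.4% over 32851 promoter windows of the table, and held 20 and 24 CpG against a median of 6. The Akap5 window held 1 CCAAT box, as ATTGG on the opposite strand, a motif found in 33.8% of all windows. The Akap10 window held none of the 4 motifs. Neither window held the letters of the cyclic AMP response element, which occurred in 1.55% of all windows, or of its core, which occurred in 17.8%. TATAAA occurred in 12.4% of all windows and in neither of these. Windows were matched for 7 of the 8 genes, and among them only 1 of the 2 windows of Akap11 held that core.

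Akap5 was counted at 0.752, 0.173 and 0.209 CPM in chronic RA F, M1 and M2, which were 24, 6 and 7 reads. In chronic CS F and M1 to M4 it was counted at 6.88, 14.5, 13.8, 12.6 and 9.50 CPM. Every chronic CS library lay above every chronic RA library, and the M1 and M2 libraries of chronic RA lay close to the limit of detection. The means were 11.4 ± 3.19 CPM (SD, n = 5) after CS and 0.378 ± 0.325 CPM (SD, n = 3) in RA. The fitted difference was a log2 fold change of 4.92 (standard error 0.79), or 30.2-fold, and stood at place 390 from the top among the 21440 genes. This is the contrast that chose the gene. In this contrast 0.00% of the 21440 genes passed an adjusted p of 0.05 in edgeR and 10.9% an unadjusted p of 0.05, while 3.92% did not overlap between the groups with CS higher and 5.49% with CS lower. Without chronic RA F, the fold change was 5.89 on the log2 scale, and without chronic RA M1 it was 4.58.

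Akap5 was low in chronic RA and not in acute RA. In the acute controls it was counted at 3.95 CPM in F and 5.32 CPM in M, with a mean of 4.64 ± 0.96 CPM (SD, n = 2). These controls lay above all chronic RA libraries and below all chronic CS libraries, the lowest of which held 6.88 CPM. Between the RA groups the fitted log2 fold change was -3.61 (standard error 0.81), or 12.2-fold lower in chronic RA, and it was -4.59 without chronic RA F and -3.27 without chronic RA M1. The large chronic fold change was thus measured against controls with far less Akap5 than the acute ones.

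**Figure D1:**
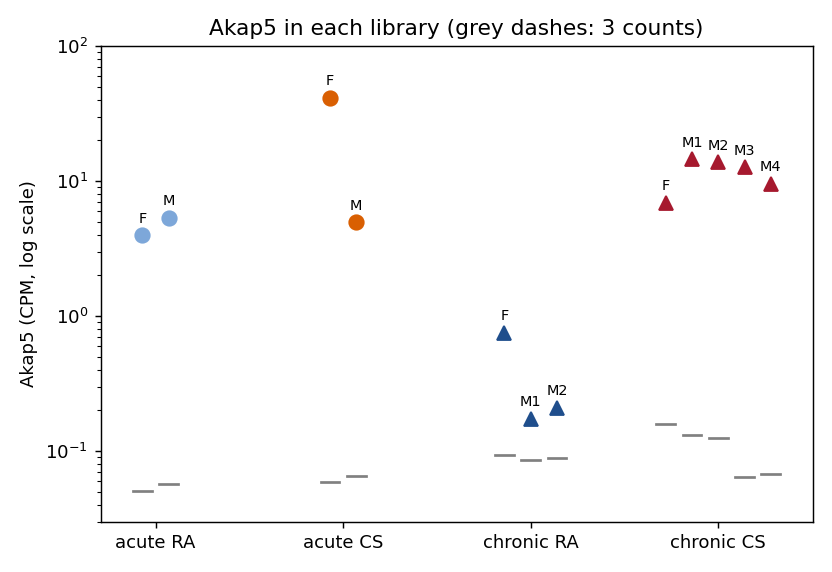
Akap5 in each of the 12 libraries, in CPM on a log axis, by group; letters give sex and number, and grey dashes mark the value of 3 counts in that library. The 3 chronic RA libraries lie between 0.173 and 0.752 CPM, below all others, and acute CS F stands highest at 41.4 CPM.

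After acute CS, Akap5 was counted at 41.4 CPM in F and 4.95 CPM in M. The F library held the highest value of the 12, and the M library lay between the 2 acute RA libraries. The mean of acute CS, 23.2 ± 25.8 CPM (SD, n = 2), thus had a spread larger than itself. Its log2 fold change from acute RA, 2.32 with a standard error of 0.86, did not pass the limit of 0.05 (adjusted p = 0.206 by the quasi-likelihood F-test of edgeR). Without acute CS F it was 0.10 (adjusted p = 1 from edgeR), and without acute CS M it was 3.16 (adjusted p = 0.0323 from edgeR). These fits leave 1 acute CS library, which is assumed to vary as the libraries of the other groups do. DESeq2 gave 2.34 with an adjusted p of 0.0456 on all libraries, and called 9.15% of all genes in this contrast. In this contrast edgeR called 3.47% of all genes, 2.75% as higher and 0.723% as lower after CS.

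Markers of other cells moved with Akap5. The 10 markers of alveolar epithelium, among them the surfactant gene Sftpc, summed to between 254 and 482 CPM in chronic RA and between 938 and 4626 CPM in chronic CS, with a higher mean after CS for 10 of 10 and groups that did not overlap for 8 of 10. The same sum was 770 and 1078 CPM in acute RA, 6559 CPM in acute CS F and 257 CPM in acute CS M. So the library with the most Akap5 also had the most of these transcripts. The 2 series parted in acute CS M, where Akap5 was at 4.95 CPM, and chronic RA M2 held more epithelial marker RNA, 482 CPM, with Akap5 at 0.209 CPM. Sftpc itself, which marks alveolar type II cells, was counted in all libraries, from 128 to 4139 CPM, and Epcam, against which the cells were sorted, at 0 to 16.1 CPM.

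The 10 mesenchymal markers, such as the collagen gene Col1a1, summed to 145 and 214 CPM in acute RA, 652 and 1034 CPM in acute CS F and M, 122 to 153 CPM in chronic RA and 222 to 355 CPM in chronic CS. Their groups did not overlap for 6 of 10 markers in the chronic contrast, and among the 5 chronic CS libraries the 2 with the most Akap5, M1 and M2, also had the largest sums. In acute CS the order was opposite, since M had the larger sum and F the more Akap5. The 8 markers of myeloid leukocytes summed to 208 to 448 CPM in chronic RA, 411 to 1693 CPM in chronic CS, 403 and 492 CPM in acute RA, and 5949 and 1985 CPM in acute CS F and M. Across the 12 libraries, which share these groups, Pearson's r was taken between the log2 of each summed CPM and the log2 CPM of Akap5, as a description. It was 0.80 for epithelium, 0.77 for myeloid leukocytes, 0.69 for mesenchyme, 0.49 for alveolar macrophages, 0.31 for blood endothelium, 0.29 for lymphoid cells, -0.58 for lymphatic endothelium and -0.59 for erythroid cells. The 6 erythroid markers summed to 196 to 433 CPM in chronic RA and 9.69 to 349 CPM in chronic CS, to 37.7 and 69.9 CPM in acute RA, and to 10.7 and 698 CPM in acute CS F and M. None of the epithelial, mesenchymal or myeloid markers was at or under 3 counts in all libraries. In contrast, the 8 neural markers, looked at because AKAP5 is known best at synapses, summed to no more than 14.4 CPM in any library, with r at 0.19. The part of other cells in the level of Akap5 was not tested.

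**Figure D2:**
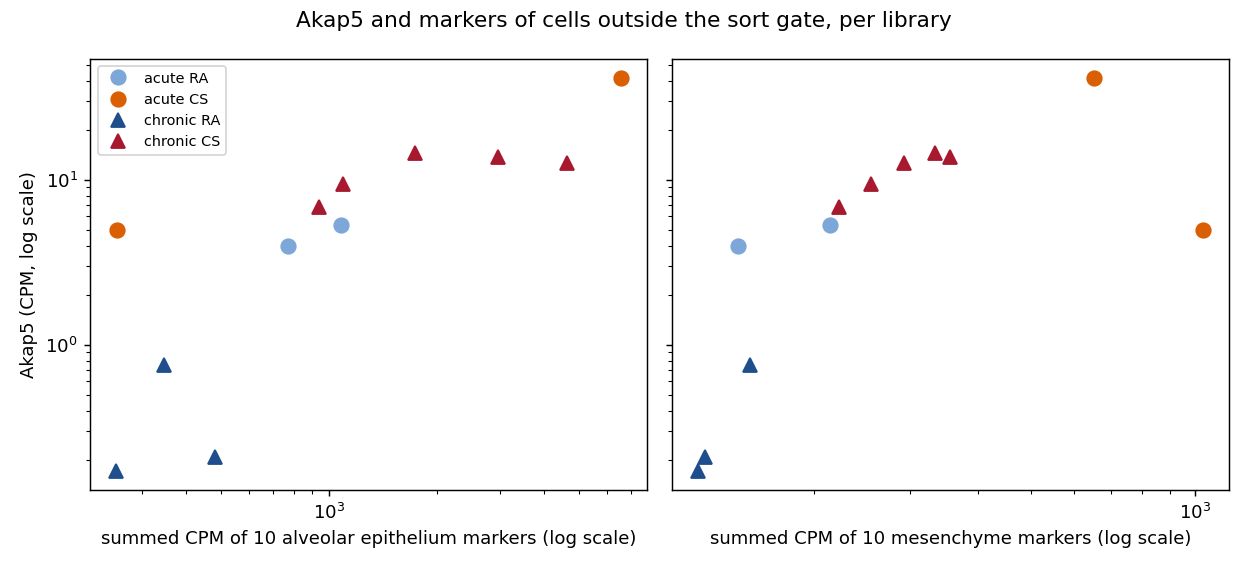
Akap5 in CPM against the summed CPM of 10 alveolar epithelial markers (left) and 10 mesenchymal markers (right), both on log axes, with 1 point per library in the colours of the 4 groups. Chronic RA lies at the lower left and chronic CS at the upper middle of both panels, and acute CS M stands apart from the rest, at 257 CPM on the left and 1034 CPM on the right.

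The genes most like Akap5 across the 12 libraries, by Pearson's r of log2 CPM among the genes tested, included Sema3e (r = 0.95, Spearman's rho 0.91), the collagen receptor gene Mrc2 (r = 0.92), Mfap4 (r = 0.91) and the amino acid transporter gene Slc38a5 (r = 0.90), given as a description of libraries that share group and cell content. Sema3e encodes a secreted semaphorin that guides vessels and axons, and was counted at 0.0596 to 1.19 CPM in chronic RA, 1.76 to 8.00 CPM in chronic CS and 20.8 CPM in acute CS F. Mfap4, a protein of elastic fibres, ranged from 12.2 to 16.8 CPM in chronic RA and from 25.9 to 79.0 CPM in chronic CS. These 4 had their lowest levels in chronic RA, as Akap5 did. Of the neighbours of Akap5 on the chromosome, Mthfd1, a folate enzyme gene upstream, lay between 28.4 and 38.1 CPM in chronic RA and between 15.7 and 44.0 CPM in chronic CS. A430103D13Rik, downstream, averaged 0.303 ± 0.256 CPM (SD, n = 3) and 0.734 ± 0.445 CPM (SD, n = 5) there, and its chronic groups overlapped.

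In RA the other anchors were more abundant than Akap5. Scaled by exon length, as FPKM (CPM per kilobase of exon), the mean levels over the 5 RA libraries fell in the order Akap12 (68.9 ± 17.2 FPKM, SD), Akap8 (19.6 ± 1.18), Akap1 (11.3 ± 1.39), Akap13 (9.40 ± 1.32), Akap10 (6.95 ± 0.56), Akap11 (3.58 ± 0.41), Akap9 (3.42 ± 0.65) and Akap5 (0.305 ± 0.351). The ranges of Akap1 and Akap13 overlapped, as did those of Akap11 and Akap9, and all other neighbours in this order were apart. In acute CS F, its highest library, Akap5 reached 6.07 FPKM, above Akap10 (5.99), Akap9 (4.89) and Akap11 (3.60) in the same library, and in chronic CS it reached between 1.01 and 2.12 FPKM. The ratio of the highest to the lowest library was 240 for Akap5 in CPM and between 1.59 for Akap10 and 2.95 for Akap11 among the other 7.

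Akap12 (ENSMUSG00000038587; chromosome 10, 4266380 to 4359470, plus strand) encodes gravin, a scaffold for PKA and protein kinase C near the membrane and cytoskeleton. It was counted at 533 and 590 CPM in acute RA F and M and at 340 and 233 CPM in acute CS F and M. Both CS libraries lay below both controls. The log2 fold change was -0.97 (standard error 0.22, adjusted p = 0.0370 from edgeR), or 1.96-fold lower, and Akap12 was the only one of the 8 genes called in the acute contrast, in which 3.47% of all genes were called. The sum of the 7 lymphatic markers was also lower in acute CS, as given above, although Lyve1, 1 of them, was higher, at 568 and 986 CPM against 443 and 536 CPM in acute RA, and the part of LEC content in this difference was not tested. The call was lost when any acute library was left out (adjusted p between 0.0536 and 0.231 from edgeR) and without chronic RA M1, chronic RA M2, chronic CS M3 or chronic CS M4 (0.0514 to 0.0581), while the log2 fold change stayed between -1.26 and -0.72. In the fits without an acute library, the 1 left in its group is assumed to vary like those of the other groups. A fit of only the 4 acute libraries gave an adjusted p of 0.132 from edgeR, and DESeq2 on all libraries gave 0.000894.

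In chronic libraries Akap12 overlapped between groups, at 327, 387 and 388 CPM in RA F, M1 and M2 and at 536, 346, 416, 498 and 486 CPM in CS F and M1 to M4. Its log2 fold change was 0.31 (standard error 0.16), with no test. All 3 chronic RA libraries lay below both acute RA libraries, with a log2 fold change of -0.61 (standard error 0.20, unadjusted p = 0.0101, adjusted p = 0.554 from edgeR). That difference did not pass the adjusted limit.

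Akap13 (ENSMUSG00000066406; chromosome 7, 75455534 to 75754609, plus strand) encodes AKAP-Lbc, which joins PKA anchoring to activation of the GTPase RhoA. It was counted at 220 CPM in both acute RA libraries, at 312 and 197 CPM in acute CS F and M, at 160 to 208 CPM in chronic RA and at 180 to 254 CPM in chronic CS. The smoke groups overlapped their controls at both times. Akap9 (ENSMUSG00000040407; chromosome 5, 3928054 to 4081310, plus strand), the large anchor of the Golgi and centrosome, was counted at 87.4 and 76.9 CPM in acute RA, 104 and 74.1 CPM in acute CS F and M, 49.6 to 75.5 CPM in chronic RA and 75.0 to 96.9 CPM in chronic CS. The chronic ranges touched only through chronic CS M3, at 75.0 CPM, below chronic RA F and M1. Like Akap5, both had their highest value of the 12 libraries in acute CS F, and r of log2 CPM over the 12 libraries was 0.72 between Akap9 and Akap5, 0.70 between Akap13 and Akap5 and 0.81 between Akap9 and Akap13. For the other 5 genes r with Akap5 lay between -0.22 and 0.16. These values describe libraries that share their groups. Cyp51 overlaps the end of Akap9 on the other strand, averaged 15.2 CPM, and reads of the shared stretch could not be told apart by strand, because the counting setting is not stated.

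Akap11 (ENSMUSG00000022016; chromosome 14, 78492246 to 78536808, minus strand) binds PKA and the kinase GSK3B. It was counted at 40.3, 46.9 and 38.2 CPM in chronic RA F, M1 and M2 and at 74.9, 43.6, 60.8, 50.4 and 45.9 CPM in chronic CS F and M1 to M4. The groups overlapped, with 3 CS libraries above all RA libraries, and the log2 fold change was 0.40 (standard error 0.20), with no test. In acute RA it was at 36.0 and 35.9 CPM and in acute CS at 39.6 and 25.4 CPM, on either side of the controls.

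Akap1 (ENSMUSG00000018428; chromosome 11, 88830792 to 88864586, minus strand), the anchor of the outer mitochondrial membrane, was counted at 55.3 and 45.7 CPM in acute RA and at 40.2 and 39.2 CPM in acute CS. Akap10 (ENSMUSG00000047804; chromosome 11, 61871307 to 61930252, minus strand), which binds both types of regulatory subunit, was counted at 47.2 and 39.8 CPM in acute RA and at 38.6 and 37.9 CPM in acute CS. For both, as for Akap12, the acute groups were apart with CS lower, but with adjusted p of 0.638 and 0.784 from edgeR. Akap8 (ENSMUSG00000024045; chromosome 17, 32303672 to 32321238, minus strand), a nuclear anchor tied to chromatin, was counted at 188 and 167 CPM in acute RA and at 174 and 111 CPM in acute CS. In chronic libraries these 3 anchors overlapped between RA and CS, at 41.4 to 55.4 and 30.6 to 54.6 CPM for Akap1, 42.5 to 48.6 and 38.4 to 60.2 CPM for Akap10, and 162 to 167 and 145 to 173 CPM for Akap8.

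**Figure D3:**
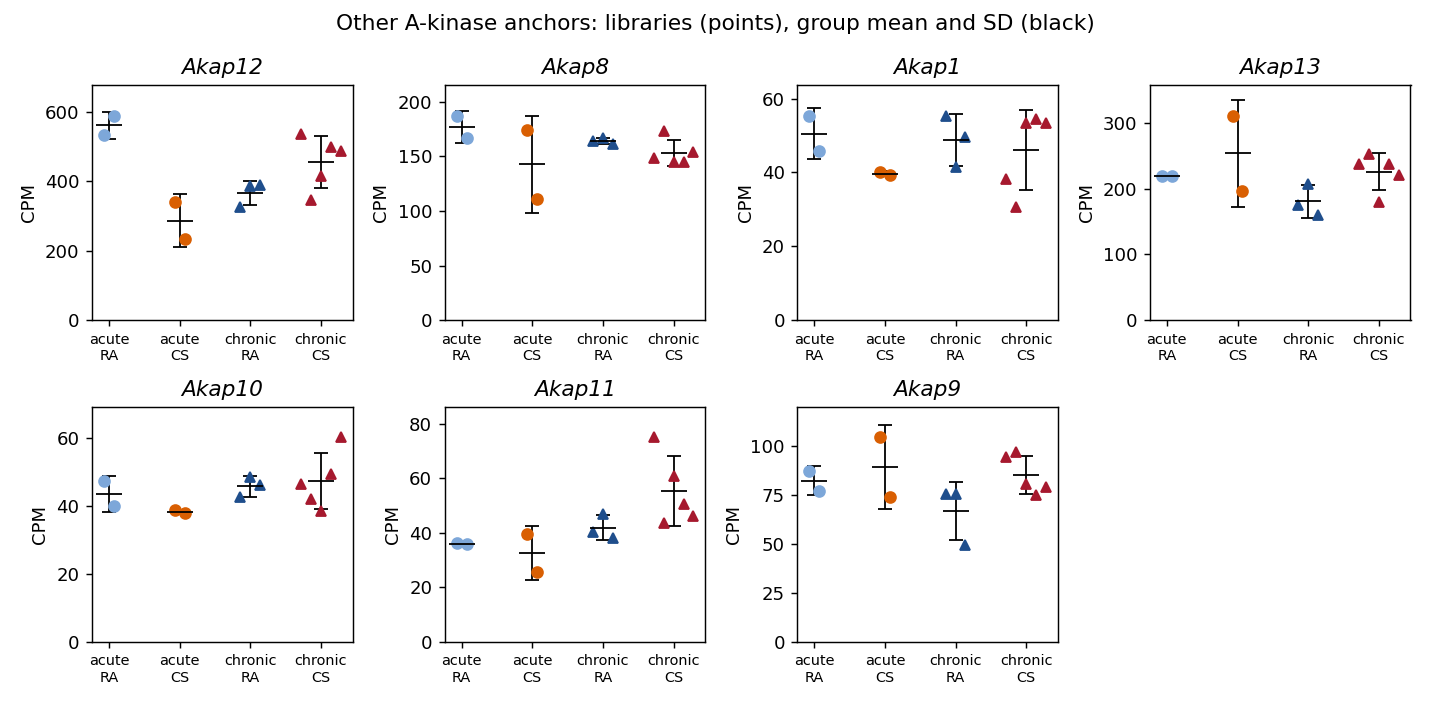
The 7 other anchors in CPM, 1 panel per gene with an axis from 0, as points per library and the mean with SD of each group in black. Akap12 is the gene whose acute CS libraries, 340 and 233 CPM, lie farthest below acute RA, and the chronic groups overlap in all 7 panels.

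Counted over the 8 genes, the acute contrast had 1 call, lower after CS, with 0 genes apart as higher and 3 as lower. Over all genes tested, 27.4% were apart as higher and 22.5% as lower in that contrast, which has 2 libraries a group. The median log2 fold change of the 8 was -0.16, against 0.04 over all genes. In the chronic contrast 1 of the 8, Akap5, was apart, and the log2 fold changes of the other 7 lay between -0.10 and 0.40, with a median of 0.32 over the 8 and 0.01 over all genes. Between chronic and acute RA, 0 of the 7 genes tested passed the adjusted limit, in edgeR or DESeq2, where edgeR called 0.00% of all genes. Akap12 was the 1 gene of the 7 with an unadjusted p under 0.05, a limit that 7.01% of all genes passed. Akap11 was apart as higher in chronic RA and Akap5, Akap12, Akap9 and Akap13 as lower, against 17.7% and 17.0% of all genes.

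**Figure D4:**
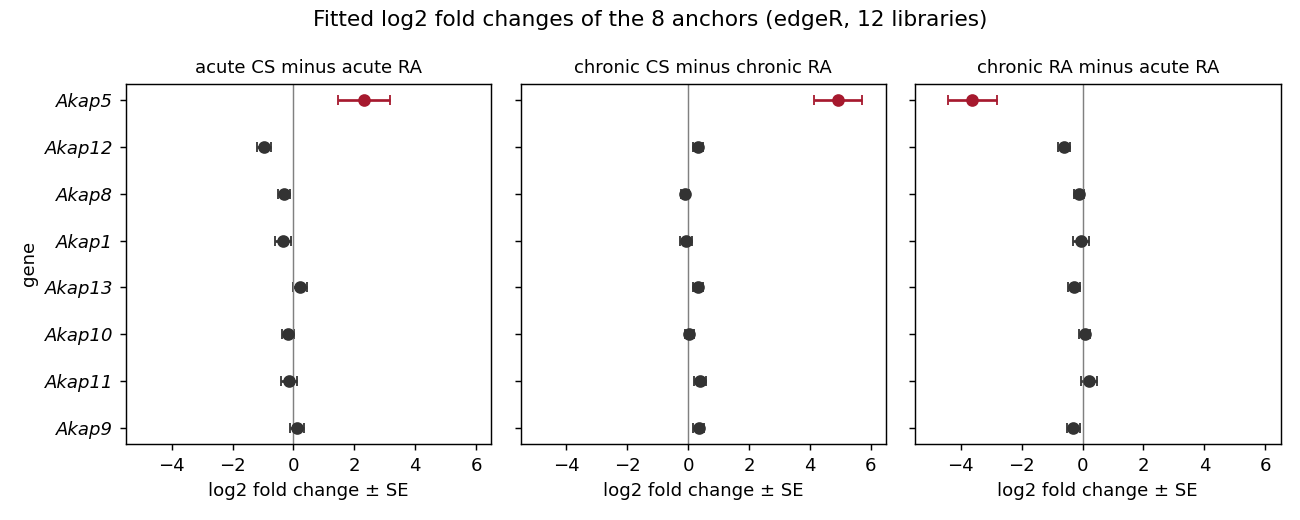
Fitted log2 fold changes (points) with standard errors (bars) of the 8 anchors for acute CS minus acute RA, chronic CS minus chronic RA, and chronic RA minus acute RA. Akap5, in red, lies at 2.32, 4.92 and -3.61, and all other values lie between -0.97 and 0.40.

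The genes around the anchors were followed in 4 lists with 82 genes in all, of which 78 were tested: other anchors, PKA subunits and inhibitors, enzymes that make, break or read cyclic AMP, and proteins known to bind AKAP5. Akap3, Akap4, Sphkap and Adcy10 did not pass the filter. In the acute contrast 11 of the 78 rose and 0 fell, against the 2.75% and 0.723% of all genes given above, with a median log2 fold change of 0.40. The lists were written by hand with earlier results of these data known. These shares are therefore a description and no test of the lists. By list, 2 of 19 other anchors, 1 of 9 PKA genes, 3 of 27 cyclic AMP enzymes and effectors and 5 of 23 partners rose. In the chronic contrast and between the RA groups edgeR called 0 of 78. At an unadjusted p under 0.05 it had 8 and 10 of the 78, where 10.9% and 7.01% of all genes passed. DESeq2 called 4 (Ezr, Pde2a and Pde8b among them) and 0, where it called 2.44% and 1.18% of all genes.

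Prkar2b, the RIIβ regulatory subunit through which anchors hold type II PKA, was counted at 2.92 and 7.04 CPM in acute RA and at 37.3 and 34.6 CPM in acute CS. Both acute CS libraries were alike and far above the controls, with a log2 fold change of 2.85 (standard error 0.36, adjusted p = 0.00400 from edgeR). In chronic libraries it was counted at 7.39 to 8.26 CPM in RA and 9.29 to 10.6 CPM in CS, which differed by a log2 fold change of 0.34 (standard error 0.25, adjusted p = 0.648 from edgeR). The acute effect exceeded the chronic one by 2.52 on the log2 scale (standard error 0.42, adjusted p = 0.0406 from edgeR), and Prkar2b was the 1 list gene for which that difference passed, where 0.452% of all genes did. DESeq2 called 11 list genes for it, Prkar2b among them, and 4.29% of all genes. The acute call of Prkar2b held on leaving out any single chronic library. It was lost in a fit of only the acute libraries and with a replicate block, described next. Its acute log2 fold change was 2.80 without acute CS F and 2.91 without acute CS M. The difference between acute and chronic lost its call on leaving out any library other than acute CS M and chronic CS M2, with sex as a covariate and under the replicate block (sex and number from the labels). Prkar1a, the most abundant PKA subunit gene here, was counted at 695 to 849 CPM in the acute libraries, with a log2 fold change of -0.13, and Prkaca, the main catalytic subunit, had a log2 fold change of 0.51 (adjusted p = 0.318 from edgeR). Of the other genes with the highest RA level in their list, Akap8l, Acbd3, Cbfa2t3, Pkig, Adcy4, Pde4b, Pde8a and Ctnnb1 did not pass in edgeR in any comparison, and DESeq2 called Adcy4 in the acute one.

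Among the partners of AKAP5, Adrb1, a beta-adrenergic receptor gene, rose after acute CS. It was counted at 4.36 and 4.28 CPM in acute RA and at 124 and 44.7 CPM in acute CS (log2 fold change 4.29, standard error 0.68, adjusted p = 0.00824 from edgeR), and its log2 fold change was 3.37 without acute CS F. Cdh5, the junction protein VE-cadherin, rose by 0.94 on the log2 scale, and the kinase genes Prkcb and Prkcd by 3.22 and 2.17; without acute CS F these 3 values were 0.53, 1.95 and 1.23. Cdh5 was apart as lower in chronic CS, as were 5.49% of all genes, with a log2 fold change of -0.37 that did not pass (adjusted p = 0.425 from edgeR). It was counted at 225 to 297 CPM in chronic CS, 324 to 328 CPM in chronic RA, and 209 and 212 CPM in acute RA. Of the cyclic AMP genes, the phosphodiesterase gene Pde3a rose by 3.77 and the Epac genes Rapgef3 and Rapgef4 by 2.46 and 4.21, or by 3.30, 1.92 and 3.09 without acute CS F. The other anchors that rose were Ezr, which encodes ezrin and links actin to the membrane, by 2.19, and Rab32, a mitochondrial anchor, by 2.06. The adjusted p of these 8 genes lay between 0.0123 and 0.0484 in edgeR. All 11 genes, called because they were higher, lay above both controls in both acute CS libraries. Of the 78 list genes, 40 were apart as higher and 15 as lower, against 27.4% and 22.5% of all genes. The 10 markers of blood endothelium summed to 2905 and 3738 CPM in acute RA and to 8360 and 6842 CPM in acute CS; the 9 of alveolar macrophages summed to 847 and 772 CPM and to 2179 and 2524 CPM. The 10 lymphoid markers summed to 21.6 and 19.8 CPM in acute RA and to 230 and 202 CPM in acute CS, with 10 of 10 apart as higher, and the myeloid and mesenchymal sums given above were also higher in both acute CS libraries. Their part in these changes was not tested. Without acute CS F 2 list genes were called (Adrb1 and Prkar2b), without acute RA M 1 (Prkar2b), and without acute RA F 2 (Prkar2b among them), in fits that called 175 of 22796, 3 of 23089 and 79 of 23066 genes in all against 745 of 21440 with every library. Without acute CS F each of the 11 kept a positive log2 fold change, of at least 0.53. Without single chronic libraries between 5 and 12 were called, and with only the acute libraries fitted, 1 (Pde3a), where 139 of 19815 genes were called.

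**Figure D5:**
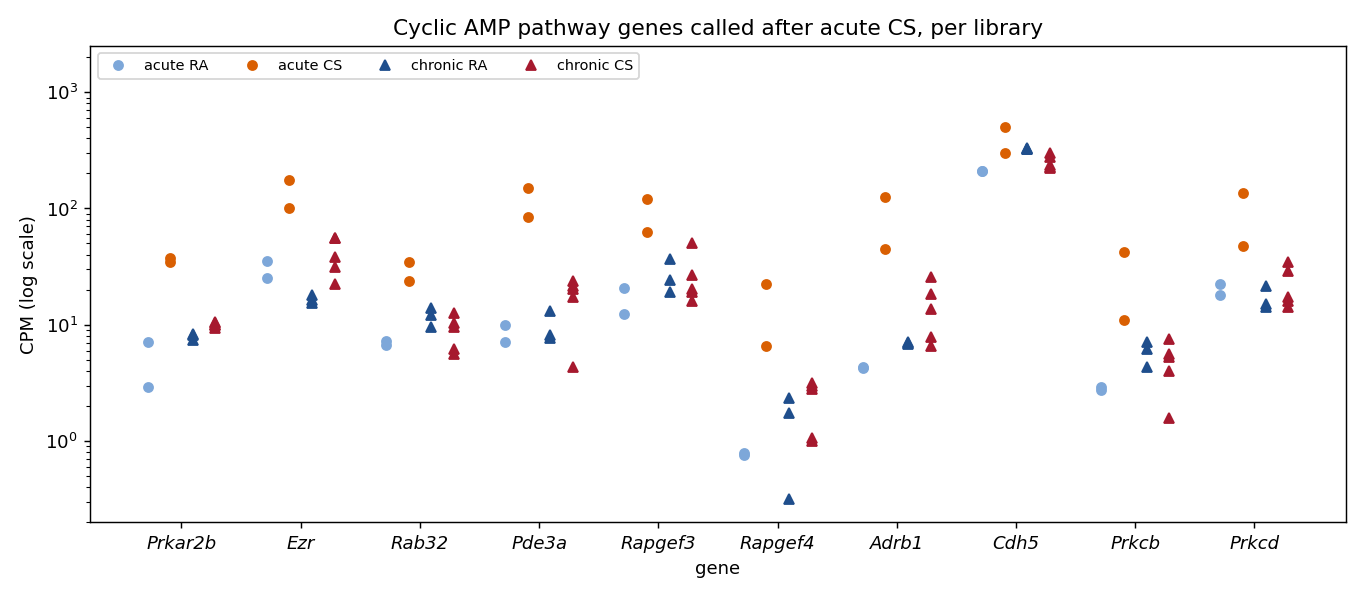
List genes called after acute CS (10 of the 11), in CPM on a log axis, with points for single libraries in the colours of the 4 groups. Acute CS (orange) lies above acute RA (light blue) for every gene shown, and in chronic libraries Prkar2b stays between 7.39 and 10.6 CPM.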

How the data were processed

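The authors trimmed reads of SMART-Seq v4 libraries with Skewer, used FastQC 0.11.9 and Minion for quality, ran STAR on GRCm38 in the DEE2 workflow and deposited the raw gene counts, with no normalization. The annotation release, the strand setting and the handling of reads with several positions are not given in the sources used here. Gene names, positions and exon lengths were taken from GENCODE M21, in which 147 identifiers, with at most 0.011% of a library's counts, were not found. The 12 count files were fitted together by group with edgeR 4.0.16 in R 4.3.3 (filter by expression, TMM factors, quasi-likelihood F-test), and p-values were adjusted over 21440 genes by Benjamini and Hochberg with a limit of 0.05. A prior count of 2 was used for log2 CPM of single libraries, and FPKM was computed from the union of exons. DESeq2 1.42.0 was an alternative. Standard errors were derived from the fold change and its F statistic. Fits were tested on simulated counts. No duplicate libraries were found.

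The genes named are the 8 anchors, genes of the 4 lists past the adjusted limit, the 3 with the highest RA level and the extremes of each list, the 5 genes most like Akap5, genes overlapping an anchor and the neighbours of Akap5; genes of the lists that passed no test are named where they add to the text, and 2 genes set by this rule are not reported here. The anchors and the lists, written by hand, were chosen with earlier results of these data known. As alternatives, DESeq2, scaling by library size, no filter, a fit of the compared groups alone, sex in the model, a replicate block, robust estimation, omission of each library and subsets of chronic CS were run.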

Additional observations from a re-analysis of the deposited data

Results flagged for a closer look

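The difference between the acute and the chronic effect of CS was tested for the 78 list genes, and that of Prkar2b, the RIIβ subunit of PKA, passed: 2.52 on the log2 scale (adjusted p = 0.0406 from edgeR). The call was lost under the alternatives given for this gene above, and exposure time cannot be told apart from age and pooling.

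Within chronic CS, the highest or lowest of the 5 libraries stood apart from the others, by Dixon's criterion, in 4 of 39 genes. Chance meets this criterion in about 1 in 20 groups of normally distributed values, a rate that need not hold here. The 39 genes include extremes picked for their fold change, and Adcy1 and Pde1c were at 0 CPM in several of these libraries. Pkig, an inhibitor of PKA, was at 218 CPM in M4 and at 119 to 148 CPM in the others. Dlg4, the scaffold PSD-95, was at 4.74 CPM in M2. Adcy1, an adenylyl cyclase gene, was at 7.15 CPM in M2 and at most 0.214 CPM in the others, and Pde1c was at 0.429 CPM in M3. None of the 8 anchors stood out in this way.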

How the results depend on the processing

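The direction of Akap5 was the same under every alternative run for each of the 3 contrasts; no replicate block could be fitted between the RA groups, and the subsets of chronic CS were run for the chronic contrast only. Its acute fold change passed the limit with DESeq2 (2.34), and ranged from 0.10 to 3.16 when single libraries were left out; the chronic one ranged from 4.58 to 5.89. Of the anchors, 2 were called in the acute contrast by DESeq2, 0 with only the groups compared, and 0 to 1 without single libraries. Acute calls among the 78 list genes numbered 20 with DESeq2, 1 with only the groups compared, 7 with sex as a covariate, and 1 to 12 without single libraries, where 1961 of 21440, 139 of 19815 and 651 of 21440 genes were called in all in the first 3 of these fits. Chronic calls numbered 4 with DESeq2. Calls for the acute minus the chronic effect numbered 11 with DESeq2, 4 with no filter, 0 with sex as a covariate, and 0 to 5 without single libraries. The cause of these differences was not tested.

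Small fold changes of other anchors changed sign. Akap10 between the RA groups was -0.036 by library size. Without single libraries, Akap10 ranged from -0.062 to 0.20 and Akap1 from -0.20 to 0.093 there, and in the acute contrast Akap9 ranged from -0.15 to 0.35, Akap13 from -0.16 to 0.50 and Akap11 from -0.50 to 0.14. In the chronic contrast Akap1 was 0.15 with chronic CS M3 and M4 only and ranged from -0.18 to 0.052 without single libraries. Akap10 was there -0.12 with the replicate block, -0.10 with chronic CS F, M1 and M2 only and 0.26 with M3 and M4 only, and ranged from -0.05 to 0.11 without single libraries.

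Libraries with the same sex and number did not deviate together (r = 0.07 for acute, -0.04, 0.03 and 0.01 for chronic pairs), so that they are not treated as pairs; they share a sex and a number in the labels, and the acute groups, with 2 libraries each, give a single r. With sex and number as a replicate block, 0 anchors and 0 list genes were called in the acute contrast and 0 for the acute minus the chronic effect, and Akap5 changed by 1.65 (acute) and 5.13 (chronic). Akap5 in chronic RA rests on 6 to 24 reads, which limits the precision of its level there.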
